A study of Mus musculus with 6 samples.

Results

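The 39 genes of the mouse Hox clusters HoxA, HoxB, HoxC and HoxD were described in a set of accessible chromatin intervals from mouse embryonic fibroblasts (MEFs). Members were the 39 genes, of 21631 protein-coding genes on chromosomes 1 to 19 and X, whose symbols read Hoxa, Hoxb, Hoxc or Hoxd followed by a number, together with every interval overlapping the span from the first to the last gene of a cluster or the 200 kb on either side. Of 323483 intervals, 536 met this rule and 211 of them lay in the spans themselves. The intervals came from ATAC-seq, in which a transposase cuts accessible DNA and leaves sequencing adapters there. The 3 groups had 2 libraries each, and all MEFs carried the M2-rtTA transactivator and a TetO-Myf6 transgene, heterozygous at both loci. Cells of the group Myf6 with F/R/C spent 24 h in iMPC medium, which contains bFGF at 10 ng/mL, with doxycycline at 2 µg/mL, the inducer of Myf6, and with 3 compounds: 5 µM forskolin, which raises cyclic AMP, 5 µM RepSox, which blocks the TGF-beta receptor kinase, and 3 µM CHIR99021, which inhibits the kinase GSK3. The Myf6 group had the same medium with doxycycline alone, and the medium group had neither doxycycline nor compounds. The labels do not name the promoter behind M2-rtTA or say whether libraries of a group stem from separate cultures or embryos.

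The table analysed here is one joined set, with no column that names a library. The 3 groups could therefore not be compared with each other. Read depth is unknown, and the values carry neither replicate error nor test. An interval marks a peak call somewhere in the experiment, and an interval from a few cells cannot be told apart from an interval shared by all cells. A wide interval may join peaks of several libraries.

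Hox genes encode homeodomain transcription factors that give cells their position along the body axis. Within each cluster all genes are read in one direction and are ordered by paralog group, so that genes at the 3′ end, with low group numbers, act early and toward the head, and genes at the 5′ end act later and toward the tail, the limb tips and the genitalia. Polycomb complexes keep Hox genes silent and Trithorax proteins keep them active, and cultured fibroblasts are known to retain the Hox expression of the body site they came from. Below, the start side of a gene is the end nearer to paralog group 13, where transcription begins. The strands that RefSeq gives for 22 of the genes matched this for all 22.

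Promoter windows show what sequence the accessible intervals did and did not cover. RefSeq-based windows of 300 bases on GRCm38.p6, from 250 bases before a start site to 50 from it onward, were at hand for 22 of the 39 genes, with 24 windows in all. HoxB gave only Hoxb1, Hoxb4 and Hoxb8, and HoxC only Hoxc4, so that the window values describe mainly HoxA and HoxD. Intervals overlapped 21 of the 24 Hox windows (87.5%), against 67.1% of the 21045 windows of all protein-coding genes. They covered 12 of the 24 Hox windows whole, near the share over all windows (54.8%). The following windows were chosen as fully covered examples, Hoxb4 from the 3′ part of a cluster and the other two from the 5′ part. They are Hoxd13 (chr2:74667975-74668274, plus strand), which shapes digits, Hoxd9 (chr2:74697513-74697812, plus strand), which acts in the forelimb and lower spine, and Hoxb4 (chr11:96318017-96318316, plus strand), which acts in the neck region and in blood stem cells. Capitals mark CpG dinucleotides, and each line runs 5′ to 3′.
Hoxd13: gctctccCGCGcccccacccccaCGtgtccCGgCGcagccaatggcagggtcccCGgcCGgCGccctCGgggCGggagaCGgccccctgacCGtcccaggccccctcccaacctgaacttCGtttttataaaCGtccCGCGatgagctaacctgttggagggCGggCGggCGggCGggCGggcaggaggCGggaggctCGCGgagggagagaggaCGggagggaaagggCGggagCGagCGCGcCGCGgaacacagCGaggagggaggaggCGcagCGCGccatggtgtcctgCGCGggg
Hoxd9: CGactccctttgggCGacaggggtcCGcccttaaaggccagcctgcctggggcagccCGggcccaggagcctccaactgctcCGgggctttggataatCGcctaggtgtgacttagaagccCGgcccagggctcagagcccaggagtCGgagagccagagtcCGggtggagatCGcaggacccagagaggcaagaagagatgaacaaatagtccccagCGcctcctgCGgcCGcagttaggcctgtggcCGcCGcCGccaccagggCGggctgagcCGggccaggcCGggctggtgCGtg
Hoxb4: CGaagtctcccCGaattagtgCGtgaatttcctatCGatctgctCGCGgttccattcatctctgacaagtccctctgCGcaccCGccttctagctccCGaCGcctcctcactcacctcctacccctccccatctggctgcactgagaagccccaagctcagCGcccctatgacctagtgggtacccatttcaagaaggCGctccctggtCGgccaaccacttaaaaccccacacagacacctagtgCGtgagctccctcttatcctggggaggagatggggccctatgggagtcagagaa
The Hoxd13 window held 37 CpG, with 74.3% G or C, and lay inside an interval of 1796 bp. In Hoxd9, 20 CpG and 68.3% G or C stood inside an interval of 1919 bp. The Hoxb4 window had 14 CpG and 58.0% G or C, inside an interval of 2303 bp. The median over the Hox windows was 14.5 CpG, so that Hoxd13 and Hoxd9 stood above it and Hoxb4 close to it.

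No interval touched the windows of Hoxa7 (chr6:52218524-52218823, minus strand), Hoxa9 (chr6:52227321-52227620, minus strand) and Hoxb8 (chr11:96281655-96281954, plus strand), which are shown as the exceptions, in the same notation. Hoxa7 patterns the thoracic skeleton, Hoxa9 is a regulator of blood progenitors and of leukaemia, and mice without Hoxb8 groom to excess.
Hoxa7: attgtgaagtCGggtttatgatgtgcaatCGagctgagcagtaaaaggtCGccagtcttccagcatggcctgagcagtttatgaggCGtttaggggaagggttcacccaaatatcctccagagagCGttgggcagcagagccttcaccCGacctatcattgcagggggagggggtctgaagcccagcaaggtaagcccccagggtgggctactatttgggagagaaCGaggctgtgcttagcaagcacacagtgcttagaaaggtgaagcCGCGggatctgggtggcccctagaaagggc
Hoxa9: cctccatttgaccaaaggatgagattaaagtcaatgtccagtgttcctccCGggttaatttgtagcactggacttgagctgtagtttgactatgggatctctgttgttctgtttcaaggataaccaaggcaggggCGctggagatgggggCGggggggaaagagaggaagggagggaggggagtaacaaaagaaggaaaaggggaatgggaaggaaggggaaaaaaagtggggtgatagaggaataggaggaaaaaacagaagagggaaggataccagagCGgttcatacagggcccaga
Hoxb8: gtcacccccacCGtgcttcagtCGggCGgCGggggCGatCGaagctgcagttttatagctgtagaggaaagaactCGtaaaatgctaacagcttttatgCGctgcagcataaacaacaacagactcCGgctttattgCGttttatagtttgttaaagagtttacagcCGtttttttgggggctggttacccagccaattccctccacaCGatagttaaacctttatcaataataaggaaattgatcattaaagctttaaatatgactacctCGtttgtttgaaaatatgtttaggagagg
Hoxa7 held 9 CpG, Hoxa9 held 4 and Hoxb8 held 13. The nearest interval lay 501 bp from the Hoxa7 start site, 139 bp from that of Hoxa9 and 1164 bp from that of Hoxb8. Hoxb8 was the single gene of the 22 with no interval within 1 kb of a listed start site. Its start site in the promoter table lies inside the longer gene of the gene table, whose own start side had an interval of 552 bp at a distance of 330 bp.

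Counting an overlap of at least 1 bp, intervals reached Hox windows of low CpG content as well as those of high content. The ratio of observed to expected CpG had a median of 0.63 over the 24 Hox windows and 0.57 over all windows. No Hox window had a ratio under 0.2, and intervals overlapped 5 of 6 Hox windows from 0.2 to 0.4, 5 of 6 from 0.4 to 0.6, 3 of 3 from 0.6 to 0.8 and 8 of 9 above. Over all protein-coding genes, intervals overlapped 18.5% of windows with a ratio up to 0.2, 42.6% from 0.2 to 0.4, 77.2% from 0.4 to 0.6, 93.3% from 0.6 to 0.8 and 96.2% above. Hox windows covered whole numbered 2 of 6 from 0.2 to 0.4 and 2 of 6 from 0.4 to 0.6. Further up they numbered 3 of 3 from 0.6 to 0.8 and 5 of 9 above. The same counts over all protein-coding genes were 876 of 3650, 1564 of 2741, 3350 of 4151 and 5383 of 5980. The low-CpG windows that were overlapped belonged to Hoxb1, Hoxc4, Hoxd4, Hoxd8 and Hoxd11, with ratios from 0.26 to 0.38. The windows that no interval touched had ratios of 0.41 at Hoxa7, 0.28 at Hoxa9 and 0.97 at Hoxb8.

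Short motifs were searched on both strands of the windows, with overlapping matches allowed. CCAAT occurred in 15 of 24 Hox windows (62.5%) and in 38.5% of all windows. CACGTG, an E-box that reads the same on either strand, occurred in 5 Hox windows (20.8%), of Hoxd1, Hoxd4, Hoxd10, Hoxd11 and Hoxd13, and in 7.91% of all. The joint Hox and Pbx core TGATNNAT occurred in 4 (16.7%), of Hoxa2, Hoxb1, Hoxb8 and Hoxd11, and in 7.36% of all. The TATA box TATAAA was found in 4 Hox windows (16.7%) and 12.7% of all, the GC box GGGCGG in 10 (41.7%) and 46.7%, and the homeodomain core TAATTA in 2 (8.33%, both of Hoxd11) and 4.47%. All 5 windows with CACGTG belonged to HoxD, which has 9 of the 22 genes. A match describes these letters only and does not show that a factor binds.

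The 4 clusters were covered by intervals to between 21.0% and 29.1% of their length. Together the spans had 122.5 of 492.1 kb (24.9%) under 211 intervals. Their median width was 458 bp, and 35 of them (16.6%) measured at least 1 kb. Over the whole set the median width was 336 bp (quartiles 185 and 607 bp), and 8.71% of intervals measured at least 1 kb. The Hox intervals thus lay closer together and were wider than the set at large. The median gap between neighbouring intervals was 793 bp in HoxA, 1148 bp in HoxB, 1206 bp in HoxC and 1013 bp in HoxD, and 3034 bp over the whole set.

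HoxA (chr6:52155367-52260880, minus strand, 11 genes) was the most densely covered cluster, with 58 intervals, 5.50 per 10 kb, over 29.1% of 105.5 kb. HoxC (chr15:102921131-103036856, plus strand, 9 genes) had 57 intervals, 4.93 per 10 kb, over 26.1% of 115.7 kb. HoxD (chr2:74668225-74765142, plus strand, 9 genes) had 39 intervals, 4.02 per 10 kb, over 25.8% of 96.9 kb. The lowest cover was that of HoxB (chr11:96194316-96368254, plus strand, 10 genes), with 57 intervals, 3.28 per 10 kb, over 21.0% of 173.9 kb. HoxB is the longest cluster, because a stretch of 74.7 kb without Hox genes parts Hoxb13 from Hoxb9. That stretch was covered to 12.0% by 15 intervals. The part from Hoxb1 to Hoxb9, 96.9 kb long, was covered to 27.6% by 41 intervals. This part, which leaves out Hoxb13 as well as the stretch, lay among the other clusters taken whole.

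**Figure D1:**
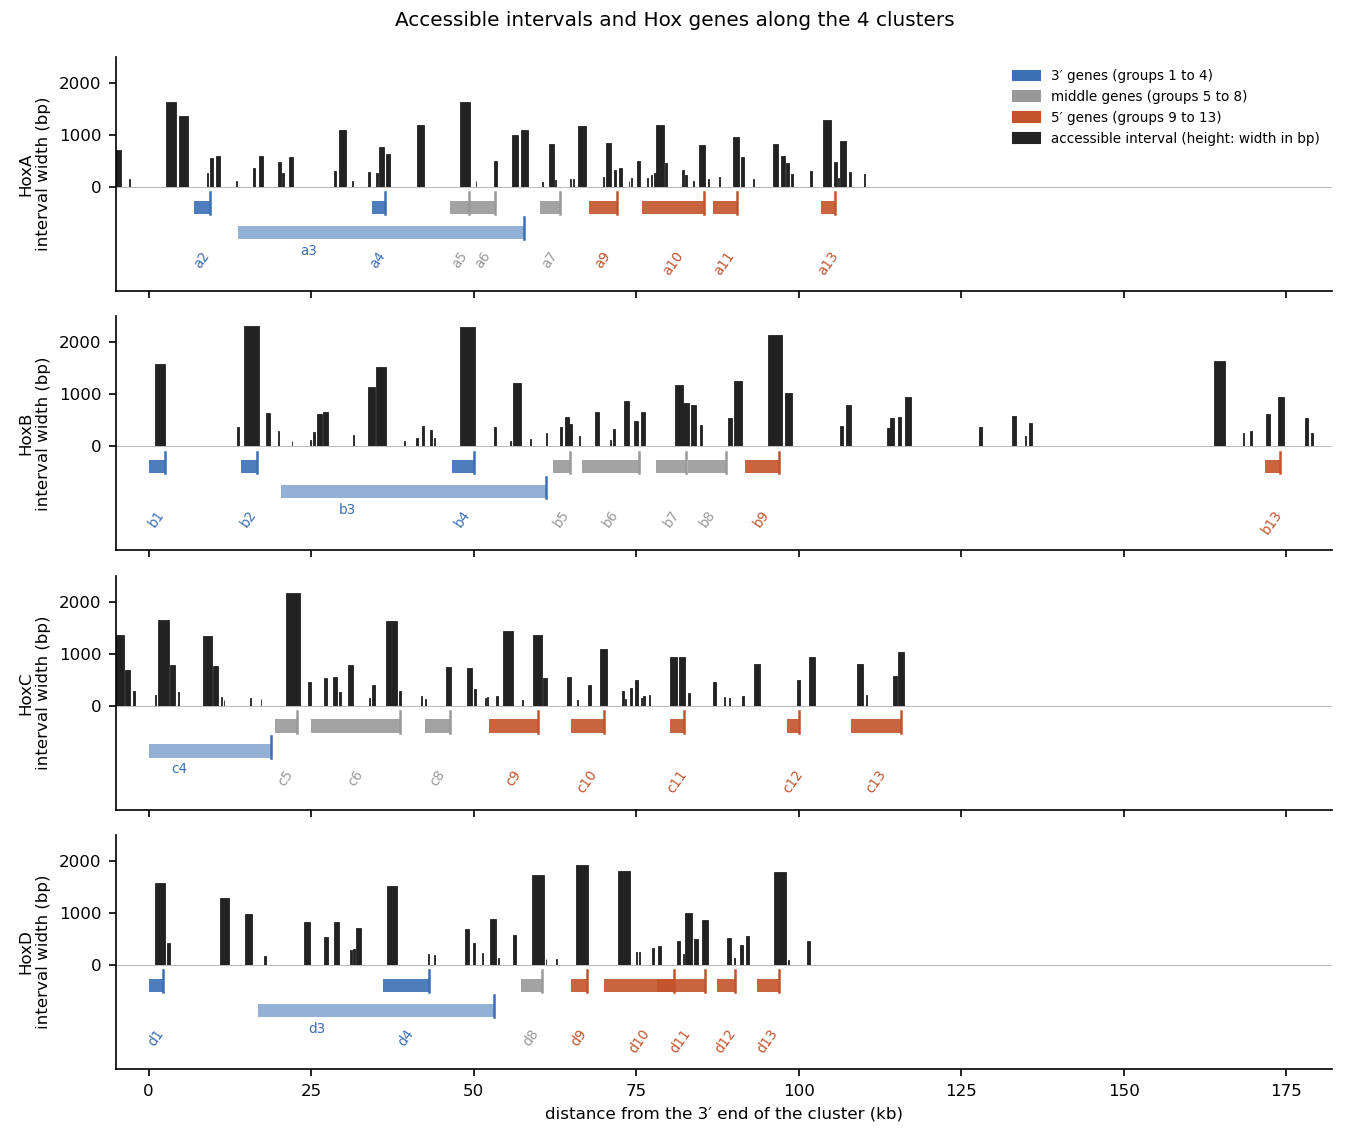
Intervals and Hox genes along the 4 clusters. Horizontal axis, distance from the 3′ end of the cluster in kb; each black bar is an interval drawn at its place, with its height giving its width in bp; boxes are 38 of the genes coloured by paralog group, with a tick at the start side, and the long gene models stand on a lower row. Tall bars sit at many start ticks, and HoxB has a stretch of 27.9 kb without an interval.

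Tiled windows of each cluster's length, over chromosomes 1 to 19 and X and away from the Hox spans, gave the background. Their median cover was 4.62% for the HoxA length, 4.85% for HoxB, 4.64% for HoxC and 4.55% for HoxD. At least as much cover as the cluster was found in 0 of 24916 windows for HoxA, 11 of 15108 for HoxB, 2 of 22717 for HoxC and 2 of 27128 for HoxD. Windows holding at least 5 protein-coding genes had a median cover from 10.5% to 12.5%. Among these gene-rich windows, 0 of 767 reached HoxA, 5 of 1240 reached HoxB, 0 of 843 reached HoxC and 0 of 690 reached HoxD. These counts describe a single set and are not a test.

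**Figure D2:**
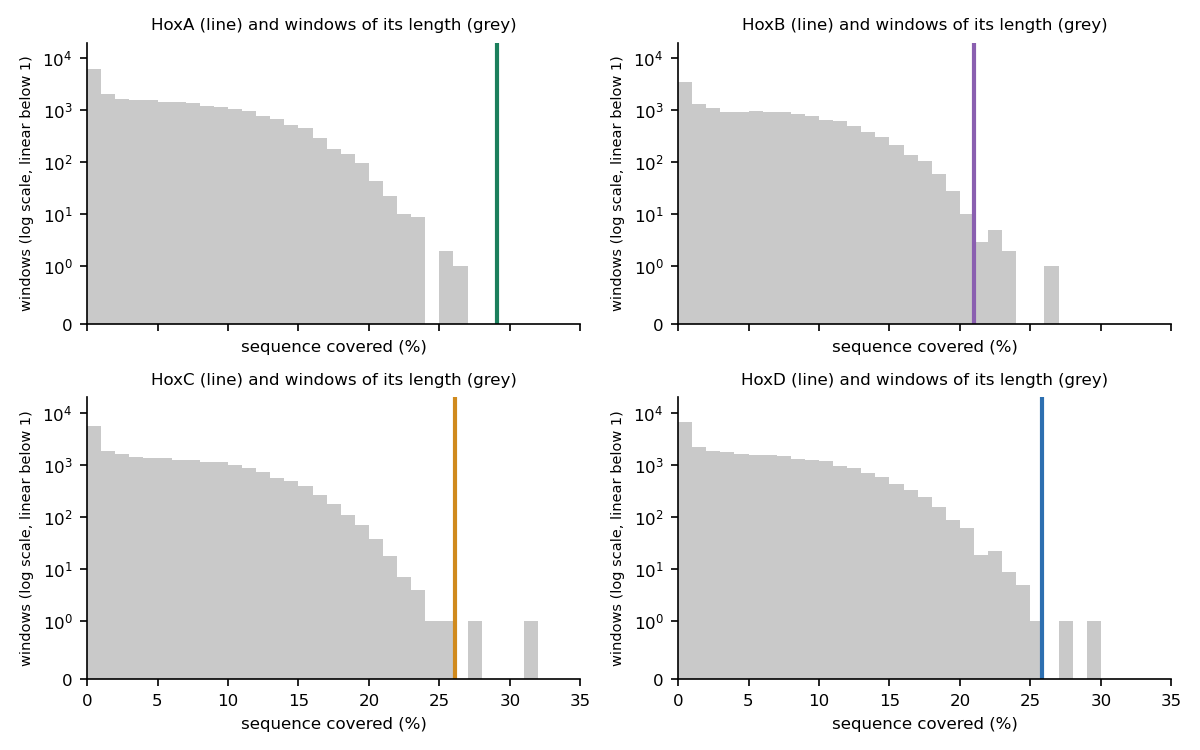
Share of sequence under intervals in tiled windows of each cluster's length (grey; horizontal axis in percent, vertical axis the number of windows on a log scale) and in the cluster itself (coloured line). HoxA lies at 29.1%, beyond the highest window at 26.0%, and HoxB at 21.0% has 11 windows at or beyond it.

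Intervals gathered at the start sides of Hox genes. An interval lay within 1 kb of the start side in 38 of 39 Hox genes, against 70.2% of the 17274 protein-coding genes with a known strand and 65.7% of the 2784 among them that were as long as the central Hox genes (2.56 to 7.44 kb). The start base itself lay inside an interval in 31 of 39, against 59.4%. At the other end an interval lay within 1 kb in 29 of 39 Hox genes, against 36.7%, and at either end in 39 of 39, against 75.5% of 21631 genes. Hox genes lie close together, so that an interval at the start of a gene can also count at the far end of its neighbour. Intervals also lay close together, with median gaps from 793 bp in HoxA to 1206 bp in HoxC. Many places in a cluster therefore have an interval within 1 kb, and how often places away from gene ends do was not counted. The start side had the wider interval in 27 genes, the other end in 6, and in 6 the widest had the same width at both ends, as when a single interval spans a short gene.

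Start-side intervals of Hox genes were common but not wide. Over the 38 genes with such an interval, the median of the widest was 958.5 bp, against 1245 bp (quartiles 912 and 1599.5 bp) over all protein-coding genes with one and 1224 bp over those of Hox-like length. The widest measured at least 1 kb in 18 of 39 genes, near the share over all genes with a known strand (48.8%). The widest interval need not hold the start base: in Hoxa2, Hoxa13, Hoxb5, Hoxb7, Hoxc6 and Hoxd12 a narrower one did. Sequence within 1 kb of a start side made up 15.0% of the spans, was covered to 51.0% and held 30.8% of all covered bases. Gene bodies away from the ends were covered to 26.6% and held 41.3% of the covered bases, sequence near the other ends to 15.2% and sequence between genes to 14.9%. Most covered sequence therefore lay outside the start regions.

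Among the 12 genes of the 3′ part, groups 1 to 4, Hoxb1 and Hoxd1 of group 1 had start-side intervals of nearly equal width. Hoxb1, which sets the identity of facial motor neurons, had 1575 bp, and Hoxd1, which acts in pain-sensing neurons of the mouse, had 1585 bp. The body of Hoxb1 (gene ID 15407) was covered to 60.4% and that of Hoxd1 (15429) to 56.3%. In group 2, Hoxb2 (gene ID 103889), another hindbrain gene, had the widest start-side interval of all 39 genes, 2306 bp at chr11:96351302-96353607, and its body was covered to 82.7%. Hoxa2, which selects the fate of hyoid arch cells that form the middle ear, had 589 bp and a body cover of 13.1%. The pair of group 2 genes thus stood far apart.

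Group 3 genes, which act in the throat organs and the neck vertebrae, have long gene models that overlap their neighbours: Hoxa3 at 44.0 kb, Hoxb3 at 40.8 kb and Hoxd3 at 36.3 kb. Their start-side intervals measured 1101 bp in Hoxa3, 249 bp in Hoxb3 and 893 bp in Hoxd3. The value of Hoxb3 was the narrowest of HoxB. Within these models, 18, 19 and 14 intervals covered 24.4% of Hoxa3, 24.6% of Hoxb3 and 21.0% of Hoxd3.

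Group 4 was the most uneven. Hoxb4 had 2303 bp at chr11:96317987-96320289, which covered 60.0% of its body and is also inside the Hoxb3 model. Hoxa4 had 765 bp and a body cover of 51.6%, and Hoxd4 had 204 bp, the narrowest of HoxD, beside a wider interval of 1518 bp at its other end. Hoxc4 (gene ID 15423, chr15:103018097-103036856) was the single Hox gene with no interval within 1 kb of the start side, and the nearest lay 1403 bp away. The gene table gives Hoxc4 a length of 18.8 kb, and the start site that the promoter table lists, base 103034395, lay inside an interval of 1651 bp at chr15:103033771-103035421, among the 3 widest of HoxC. The 2 tables thus place the Hoxc4 start at different sites, the second of them inside the gene, and an interval covered the second site alone.

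**Figure D3:**
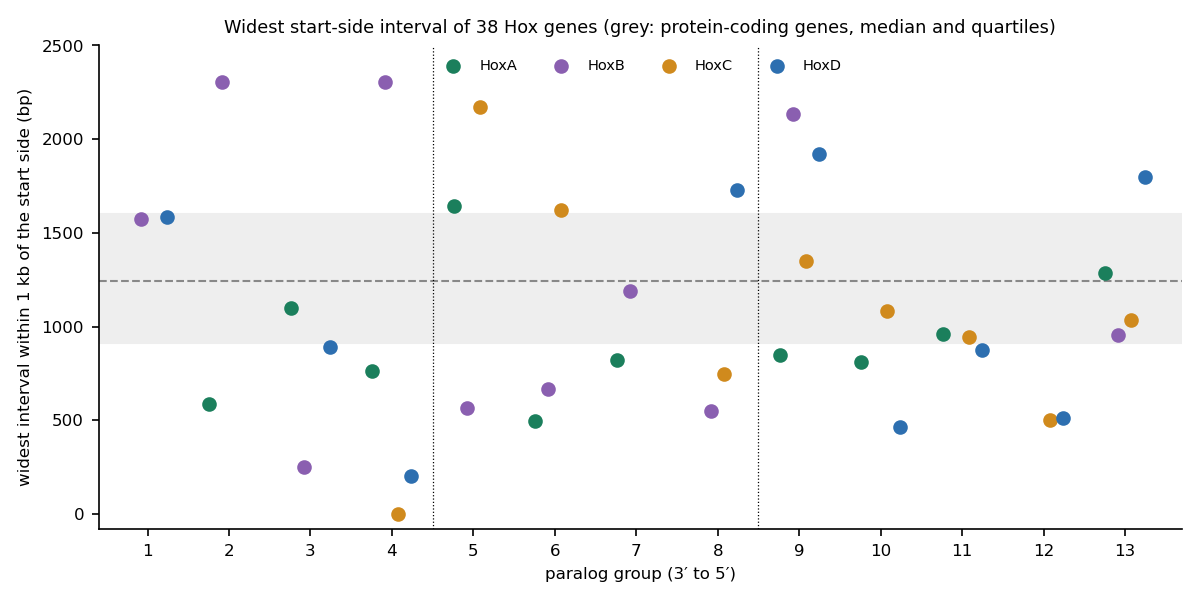
Widest interval within 1 kb of the start side (vertical axis, bp) of 38 Hox genes by paralog group (horizontal axis, 3′ to 5′), coloured by cluster. The dashed line is the median of protein-coding genes with such an interval (1245 bp), and the grey band spans their quartiles; Hoxc4 stands at 0, and Hoxb2 and Hoxb4 stand highest.

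The 11 middle genes, groups 5 to 8, pattern the chest and the trunk. Group 5 held the widest start-side intervals of 2 clusters. In Hoxc5 (gene ID 15424) 2171 bp at chr15:103013613-103015783 covered 51.9% of the body, and in Hoxa5, needed for the lung and the airways, 1643 bp at chr6:52203188-52204830 covered 49.4%. Hoxb5 had 567 bp. In group 6, Hoxc6 had 1625 bp, Hoxb6 666 bp and Hoxa6 495 bp, the narrowest of HoxA. Group 7 held Hoxa7 with 821 bp and Hoxb7 with 1189 bp. In group 8, Hoxd8 had 1729 bp, Hoxc8 748 bp and Hoxb8 552 bp. Hoxc8, which acts in the thoracic skeleton and in forelimb motor neurons, had the lowest cover of all 39 genes when 2 kb on either side were included, at 13.6%. Among the middle genes, HoxA, HoxC and HoxD each held a width above 1600 bp, and those of HoxB did not pass 1189 bp.

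A single interval held ends of a pair of Hox genes. It lay at chr11:96285193-96286019 (827 bp) and contained the start base of Hoxb7 and the last base of Hoxb8, which lie on the same strand, Hoxb8 before Hoxb7.

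Among the 16 genes of the 5′ part, groups 9 to 13, all had an interval within 1 kb of the start side, and 14 had the start base inside an interval. Group 9 held the widest pair of the 5′ part, Hoxb9 and Hoxd9. Hoxb9 had 2137 bp at chr11:96270813-96272949, Hoxd9 (gene ID 15438) 1919 bp at chr2:74697510-74699428, which covered 68.1% of its body, Hoxc9 1352 bp and Hoxa9 850 bp. In group 10, whose genes act in the lumbar spine, the hindlimb and, for Hoxa10, the uterus, Hoxc10 had 1083 bp, Hoxa10 813 bp and Hoxd10 463 bp. An interval of 1809 bp at chr2:74691156-74692964, among the 3 widest of HoxD, lay inside the long Hoxd10 model and covered the Hoxd10 start site of the promoter table. Group 11, which shapes the forearm, the lower leg and the kidney, was the most even of the 5′ groups with 3 or more genes, with 961 bp in Hoxa11, 946 bp in Hoxc11 and 875 bp in Hoxd11. The body of Hoxc11 (gene ID 109663) was covered to 78.6%. The 2 genes of group 12 had narrow intervals, of 501 bp in Hoxc12, the narrowest of HoxC among genes that had such an interval, and 512 bp in Hoxd12.

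The 4 genes of group 13, the last of each cluster, act at the tips of the body. Hoxd13 had 1796 bp at chr2:74667118-74668913, Hoxa13, a partner of Hoxd13 in digit formation, had 1287 bp, Hoxc13, which acts in hair and nails, had 1038 bp, and Hoxb13, which acts in the tail end and the prostate, had 956 bp. Hoxa13 (gene ID 15398, chr6:52258853-52260880) had 4 intervals within 1 kb of its start side, a body covered to 71.0%, and the highest cover of all 39 genes with 2 kb on either side, 52.0%. All 4 had the start base inside an interval, which in Hoxa13 was a narrower one of 487 bp.

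Set side by side, 3′ and 5′ genes had close median widths at the starts of the gene models. The size and sign of the difference depended on the measure, the genes included and the cluster. The widest start-side interval had a median of 997 bp over the 12 genes of the 3′ part, 821 bp over the 11 middle genes and 958.5 bp over the 16 genes of the 5′ part, counting Hoxc4 as 0. The gene with 2 kb on either side was covered to a median of 27.9%, 29.5% and 33.0% in the same order. The range over genes was 17.1% to 50.7% in the 3′ part and 17.0% to 52.0% in the 5′ part. These ranges, each set by its lowest and highest gene, overlapped almost entirely. Leaving out HoxB turned the difference in width, 829 bp for 3′ and 953.5 bp for 5′ genes. Leaving out the 4 genes longer than 15 kb, all of them in the 3′ part, raised it to 1580 bp for 3′ genes against 958.5 bp for 5′ genes, and left the cover at 32.7% and 33.0%. The start chosen also matters. At the gene-model start Hoxc4 counted as 0 and Hoxd10 as 463 bp. Their start sites in the promoter table lay inside intervals of 1651 and 1809 bp. The medians were not recomputed with those sites.

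By stretch of sequence, the clusters split into pairs. The stretch from the first to the last 3′ gene was covered to 26.4% in HoxA and 22.3% in HoxD, against 32.3% and 32.0% over their 5′ stretches. In HoxB the 3′ stretch was covered to 24.9% and the 5′ stretch, which includes the 74.7 kb between Hoxb9 and Hoxb13, to 13.9%, and in HoxC it was 29.7% and 23.7%. By this measure cover was higher at the 5′ side in HoxA and HoxD and higher at the 3′ side in HoxB and HoxC. The 3′ stretch of HoxC is Hoxc4 alone, and that of HoxA also holds Hoxa5 and Hoxa6 inside the Hoxa3 model. By gene with 2 kb on either side, HoxB went the other way, with a median of 27.8% over its 4 genes of the 3′ part and 37.3% over its 2 of the 5′ part. When each span was cut into 5 equal stretches, cover from 3′ to 5′ was 29.6, 24.1, 26.6, 33.1 and 31.9% in HoxA, and 23.0, 25.9, 17.3, 32.5 and 30.5% in HoxD. In HoxB it was 23.7, 27.0, 30.6, 15.0 and 8.79%, and in HoxC 33.0, 26.2, 26.9, 25.7 and 18.8%. The last stretch was the least covered in HoxB and HoxC.

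**Figure D4:**
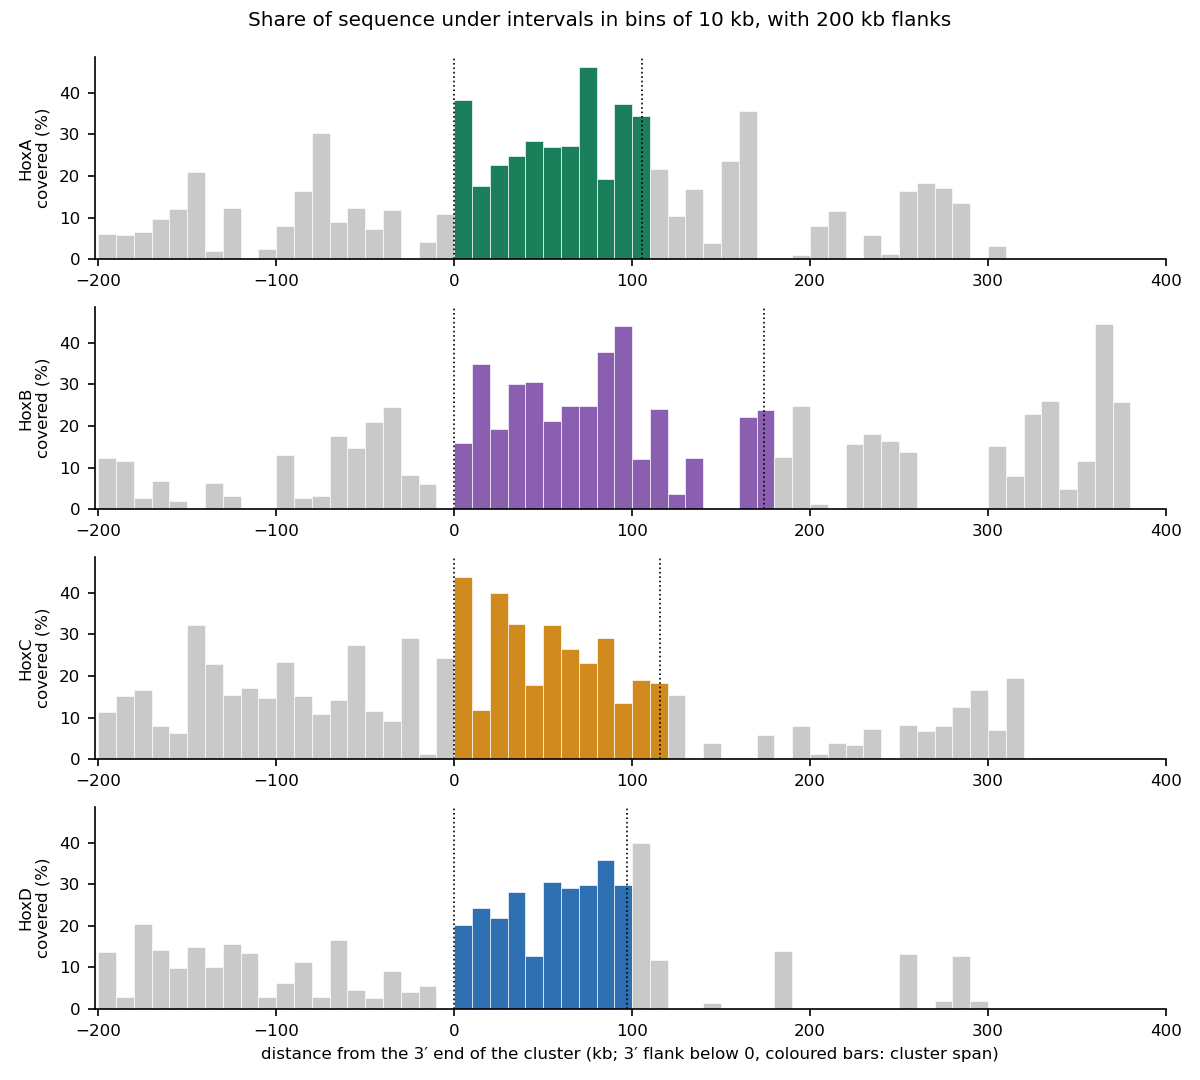
Share of sequence under intervals (vertical axis, percent) in bins of 10 kb from the 3′ end of each cluster (horizontal axis, kb), with the cluster in colour between dotted lines and the flanks in grey. The clusters rise above most of their flanks, HoxB drops to 0 between 140 and 160 kb, and the bin just beyond the 5′ end of HoxD, at 39.9%, is higher than any bin inside it.

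The longest stretch without an interval measured 27.9 kb in HoxB, at chr11:96204389-96232333, between Hoxb13 and Hoxb9. In HoxD it was 7.81 kb (chr2:74754091-74761903), between Hoxd3 and Hoxd1. In HoxC it was 6.51 kb (chr15:102927850-102934363), beginning inside the far end of Hoxc13, and in HoxA 6.26 kb (chr6:52177575-52183832), inside the long Hoxa3 model. Body cover ranged from 7.50% (Hoxa6) to 82.7% (Hoxb2), with a median of 32.1% over the 39 Hox genes. The median was 14.7% over protein-coding genes of Hox-like length and 8.85% over all. In a short gene a single interval can cover most of the body, as in Hoxb2, which is 2.39 kb long.

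The first 20 kb beyond the clusters differed between the sides. On the 3′ side they were covered to 7.47% in HoxA, 3.04% in HoxB, 12.8% in HoxC and 2.75% in HoxD. On the 5′ side the values were 24.0% in HoxA, 18.1% in HoxB, 10.3% in HoxC and 29.4% in HoxD. The 5′ side was thus higher in HoxA, HoxB and HoxD and lower in HoxC, and at HoxD it exceeded the cluster itself (25.8%). The sides are not alike, since the 5′ side begins at the start of a group 13 gene and the 3′ side at the far end of a gene. In HoxB and HoxD the widest interval reaching the 5′ side was the one over that start, of 956 and 1796 bp. The 5′ side of HoxD also holds the gene Evx2. Over the whole 200 kb, the 3′ and the 5′ flank were covered to 9.43% and 11.2% at HoxA, 7.80% and 12.6% at HoxB, 16.3% and 6.63% at HoxC, and 9.08% and 5.46% at HoxD. The widest interval of any flank, 2436 bp at chr15:103059292-103061727, lay 22.4 kb beyond the 3′ end of HoxC.

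The homeobox genes Evx1 and Evx2, old companions of the Hox genes, stand beyond the 5′ ends of HoxA and HoxD. Evx2, 6.71 kb from Hoxd13, was covered to 36.3% of its body by 5 intervals, and Evx1, 52.6 kb from Hoxa13, to 41.2% by 3. The next gene beyond Evx2, Lnpk, was covered to 2.06% by 1 interval. The other neighbours in the flanks ranged from 0% (Atp5g1) to 22.3% (Snf8).

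RNAs without a protein inside or beside the clusters overlapped many of the same intervals. Of 21 listed names 16 were found in the gene table. Hotairm1, in the 3′ part of HoxA and known from myeloid cells, was covered to 70.2%. Hottip, at the 5′ tip of HoxA and known to bring the Trithorax partner Wdr5 to 5′ HoxA genes, was covered to 20.1%. Hotair, in HoxC and known for its link to Polycomb, was covered to 8.52%, and Halr1, in the 3′ flank of HoxA, to 7.57%. These values ranged widely. Between them stood Hoxaas3 (34.0%), Hoxd3os1 (33.2%), Hoxb3os (31.4%), Hoxb5os (29.7%), Haglr (20.6%) and Hoxaas2 (18.7%), all of which overlap or adjoin Hox genes.

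The clusters also hold microRNAs, and their mature sequences are shown because Hox messages are among the known targets of the miR-196 family. RefSeq gives the following, 5′ to 3′, with the seed (bases 2 to 8) in capitals.
miR-196a-5p: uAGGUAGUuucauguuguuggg
miR-196b-5p: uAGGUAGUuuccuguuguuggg
miR-10a-5p: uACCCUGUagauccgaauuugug
miR-10b-5p: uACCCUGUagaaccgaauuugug
miR-615-3p: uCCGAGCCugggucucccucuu
The miR-196 members share the seed AGGUAGU and come from Mir196b beside Hoxa9, Mir196a-1 beside Hoxb9 and Mir196a-2 beside Hoxc9. The miR-10 members share ACCCUGU and come from Mir10a beside Hoxb4 and Mir10b inside Hoxd4. Of the 6 hairpins, only Mir615, which lies inside Hoxc5, was within an interval, the 2171 bp one at the Hoxc5 start. The nearest interval lay 293 bp from Mir196b, 713 bp from Mir10a, 755 bp from Mir10b, 842 bp from Mir196a-2 and 3272 bp from Mir196a-1. For Mir10a and Mir10b it was a wide one, of 2303 and 1518 bp.

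High cover around the gene was not particular to Hox genes. Each gene with 2 kb on either side had a median cover of 30.2% over the 39 Hox genes, 29.7% over 24 other homeobox genes, 16.6% over 3551 protein-coding genes of Hox-like length and 10.0% over all 21631. Because Hox genes lie close together or overlap, their margins and long models take in intervals of neighbouring Hox genes. The same interval can thus count for several of them. All 24 of those homeobox genes had an end interval, and En2 (2069 bp), Irx6 (2059 bp), Mnx1 (2049 bp) and Gbx1 (1973 bp) had the widest. Genes whose proteins act with Hox proteins or on Hox genes had wider end intervals than Hox genes in the median, and a lower median cover. For the 9 cofactors of the Pbx, Meis and Pknox families, which bind DNA together with Hox proteins, all 9 had an end interval, with a median of 1471 bp for the widest and a median cover of 12.0%. Pknox1 (2427 bp), Pknox2 (1858 bp), Pbx3 (1770 bp) and Pbx2 (1525 bp) led them. Of 22 Polycomb, Trithorax and related regulators, 21 had an end interval, with a median of 1503.5 bp and a cover of 14.5%. Kmt2a (2429 bp), Ctcf (2240 bp), Kdm6a (2134 bp) and Kmt2b (2132 bp) led that list, and Ash2l had none at an end. The same measure, the widest at either end, had a median of 1101 bp over Hox genes. No list was tested against another.

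**Figure D5:**
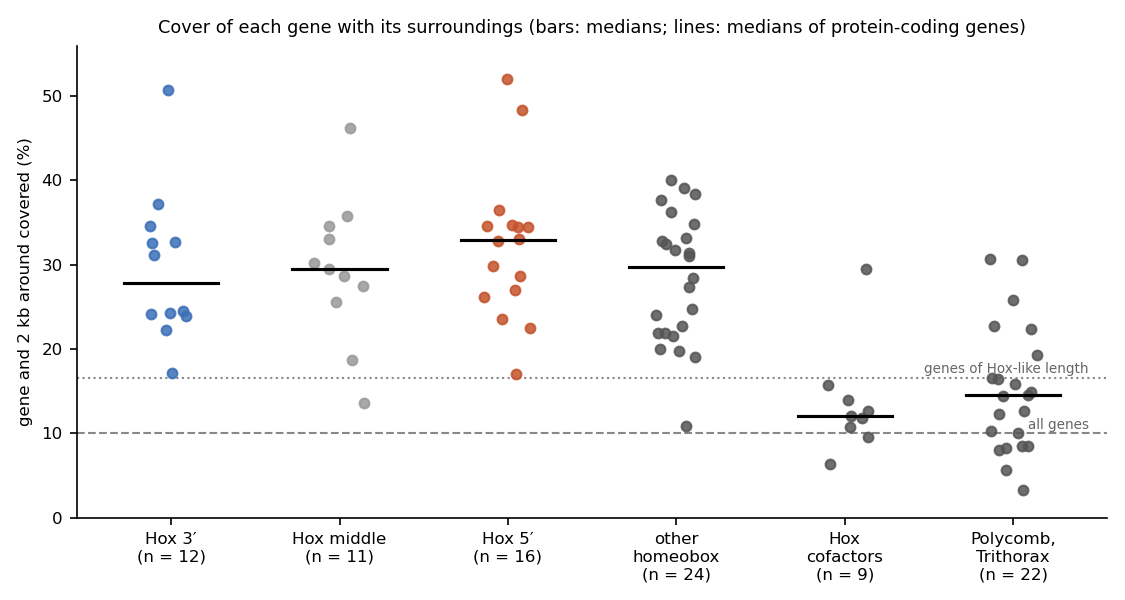
Share of each gene with 2 kb on either side under intervals (vertical axis, percent) for Hox genes of the 3′, middle and 5′ groups and for 3 other lists; bars are medians, and lines are the medians of all protein-coding genes (10.0%) and of those of Hox-like length (16.6%). Hox and other homeobox genes lie near 30%, and cofactors and Polycomb or Trithorax genes lie lower.

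As a check of the labelled cell type, an end interval was found for all 8 fibroblast markers, from 832 bp (Col3a1) to 2311 bp (Col1a1). It was found for 4 of 6 skeletal muscle markers (not Myh8 and Myl1), 1 of 4 macrophage markers (not Adgre1, Ptprc and Tyrobp), 2 of 4 endothelial and 3 of 4 epithelial markers. Over all protein-coding genes the share was 75.5%, so that the muscle and epithelial counts stood near it. Wide end intervals were not particular to fibroblast markers, with 2297 bp at Tnnt3 of muscle, 1587 bp at Epcam of epithelium and 1559 bp at Kdr of endothelium. Counting genes without one as 0, the median was 1208.5 bp for fibroblast, 1042 bp for epithelial and 573.5 bp for muscle markers. It was 325.5 bp for endothelial and 0 bp for macrophage markers, and 1034 bp over all protein-coding genes. The part of cells other than fibroblasts in the Hox intervals was not tested.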

How the data were processed

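ATAC-seq was run on MEFs in 3 groups of 2 libraries, from 50k cells with 12 PCR cycles each, following an Omni-ATAC protocol, per the labels' protocols. The submitters' processing notes name DESeq2, MACS2, BWA and the build GRCm38.p6. Consensus peaks were passed to annotatePeaks of HOMER with GENCODE vM23, per the file headers. The sources used here do not give how peaks were called and joined, or on which libraries. The deposited peak score was 0 for every interval and was not used. The deposited positions are 1-based.

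Gene positions came from the RefSeq table of the same assembly, and promoters and microRNAs from its sequence tables. An overlap of at least 1 bp counted. A gene was represented by its widest interval within 1 kb of an end and by the covered share of its body and of the body with 2 kb on either side. The 3′, middle and 5′ classes were paralog groups 1 to 4, 5 to 8 and 9 to 13. Background values came from all protein-coding genes and from tiled windows that do not overlap a Hox span. The genes with the widest and narrowest start-side interval of each cluster, those without such an interval or with most of the body covered, those under the 3 widest intervals and the longest gap of each cluster were named by rule, and the other Hox genes were added to account for each, apart from 1 that counts in all totals and is not reported here by itself. The members and lists were chosen with earlier results of these data known. The overlap code was tested on simulated data. Python 3.11.15 with numpy 2.4.6, pandas 2.3.3 and matplotlib 3.10.9 was used.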

Additional observations from a re-analysis of the deposited data

How the results depend on the processing

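No paired analysis was possible because the table has no column for a library. Leaving out single libraries was not possible either. With intervals of at least 300 bp, cover was 25.0% in HoxA, 19.6% in HoxB, 22.1% in HoxC and 23.5% in HoxD, and with at least 600 bp it was 18.6%, 14.8%, 16.8% and 17.9%. With spans extended by 20 kb it was 25.4%, 19.1%, 22.4% and 23.0%, and by 200 kb 14.2%, 13.5%, 14.8% and 10.9%. HoxA led under all but the last, where HoxC did. From Hoxb1 to Hoxb9, an alternative chosen after seeing the data, HoxB cover was 27.6%. Intervals per 10 kb numbered 3.32 in HoxA, 2.47 in HoxB, 2.68 in HoxC and 2.79 in HoxD at 300 bp, where HoxD passed HoxC, and 1.80 in HoxA, 1.32 in HoxB, 1.56 in HoxC and 1.55 in HoxD at 600 bp. Start-side counts ranged from 29 (at least 600 bp) to 39 (within 2 kb, or either end) of 39. The 3′ minus 5′ difference in median start-side width was 38.5 bp. It was 41.0 bp for groups 1 to 6 against 7 to 13, 382 bp for 1 to 3 against 11 to 13, 46.0 bp within 500 bp, 17.0 bp within 2 kb and 7.27 bp with means. It was 237 bp without HoxA, -124.5 bp without HoxB, 145 bp without HoxC, 140 bp without HoxD and 621.5 bp for genes up to 15 kb, also added after seeing the data. The difference in cover was -5.10 percentage points, and in the same order -3.95, -4.28 and, with means, -2.62, then -4.79, -4.40, -1.91, -3.25 and -0.270. The causes of these changes were not tested.

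Depth is unknown, so that a stretch without an interval was not shown to be closed. Widths depend on how peaks were joined.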

Other observations

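Other homeobox families were covered to varied degrees. Among the Iroquois genes, which pattern the heart, the limb and the nervous system, the cover of the gene with 2 kb on either side was 40.0% at Irx1, 37.7% at Irx3 and 31.4% at Irx5, and 22.7% at Irx2, 27.3% at Irx6 and 20.0% at Irx4. Among the Dlx genes of the face and the limb it was 33.2% at Dlx2 and 32.5% at Dlx3, and 19.0% to 21.9% at Dlx1, Dlx4, Dlx5 and Dlx6. Of the ParaHox genes, the closest relatives of the Hox clusters, Cdx2 was covered to 39.1%, Gsx2 to 31.0%, Pdx1 to 24.8%, Gsx1 to 21.5% and Cdx4 to 10.9%. These genes were named after their values were seen.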
